A study of Mus musculus with 36 samples.

Results

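Procr and 8 genes of blood coagulation and of the plasminogen system were examined in fetal mouse fibroblasts kept under static medium or under flow. The genes are Procr, Thbd, F3, Tfpi, Tfpi2, Plat, Plau, Plaur and Serpine2. They were chosen by name, with earlier results of these data known, among them the higher level of Procr under flow in the tendon and on average over the tissues. The flow values of Procr are therefore given as a description. Where Procr passes a threshold for flow, this is stated for completeness and supports nothing. A probe set (a group of probes for 1 transcript) was taken for a gene where the platform annotation gave it that symbol and no other. On the 2 chips this left 13 probe sets for 8 of the 9 genes, among 18193 genes represented in all, and Serpine2 was not analysed here.

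Primary fibroblasts of the tendon, cornea and skin were isolated from CD1 mouse fetuses at day 19 after conception and grown for 5 population doublings. They were seeded on gelatin-coated glass and kept for 14 h in medium with 2% serum, either static or in a parallel plate chamber at a wall shear stress of 0.1 dyn/cm2. No transgene or deletion was involved, and the groups differed by tissue and state. Each of the 6 groups holds 3 libraries, a library being the pair of arrays (chips A and B) hybridised for 1 sample, so that 18 libraries and 36 arrays were measured. The series text describes biological replicates. Whether those of a group stem from different fetuses or litters is not stated in the labels, and p-values then cover only the spread among these libraries, which may be technical.

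The endothelial protein C receptor, encoded by Procr, binds protein C at the cell surface and presents it to the complex of thrombin and thrombomodulin, which turns it into an anticoagulant protease. Tissue factor starts coagulation, and tissue factor pathway inhibitor restrains it. The plasminogen activators turn plasminogen into plasmin, which dissolves fibrin and helps to break down matrix around cells. Fibroblasts outside the blood vessels make several of these proteins, tissue factor and the urokinase receptor among them.

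The level of a gene is the deposited log2 value of its probe set, and where a gene had several, a representative was used and the others are described beside it. Levels of different probe sets are not compared with each other. A difference was called at an adjusted p below 0.05, from limma with Benjamini-Hochberg adjustment over all 18193 genes. Errors beside group means are SDs over 3 libraries, and errors beside differences are standard errors of the fit. Groups of 3 libraries each fail to overlap, in either direction, with a probability of 0.1 by chance. A lack of overlap is therefore given as a description, and the share of all genes that show it was not counted.

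The description of the tendon flow arrays names the cornea, whereas their titles, source names and scan records name the tendon. On a scale over 444 genes that puts the mean of static cornea at 0 and that of static tendon at 1, the 3 tendon flow libraries lay between 0.90 and 1.00 and the 3 corneal flow libraries between 0.02 and 0.11. The libraries were analysed as tendon, and results without any tendon library are given where they bear on a gene. Tendon static 3 stood apart on the principal component that held 18.0% of the variance, at 43.0, with the other 17 libraries between -21.9 and 15.9. On the next component, with 13.8% of the variance, corneal static 1 (20.1) and flow 2 (19.3) and skin static 2 (23.6) and flow 2 (22.2) stood apart from the other 14, which lay between -16.2 and 6.8. All 10 fibroblast markers lay above the 40th percentile of their chip, while 7 of 12 endothelial, 6 of 10 macrophage and leukocyte and 7 of 10 epithelial markers lay below it. The endothelial genes Pecam1 and Cdh5 were at the 19.2th and 24.8th percentile, but Kdr and Egfl7 of the same list at the 72.7th and 70.3th. The macrophage marker Csf1r stood at the 77.3th percentile. Of the other markers measured, 4 of 4 mesothelial, 4 of 6 skeletal muscle and 2 of 4 neural crest and glial markers lay below the 40th percentile. Only 1 of 6 platelet and 1 of 8 smooth muscle and pericyte markers did. Whether other cell types were present was not tested.

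Procr was higher under flow in the fibroblasts of each of the 3 tissues. In tendon the static libraries stood at 8.62, 8.64 and 9.07 and the flow libraries at 10.60, 10.52 and 10.44. In cornea the static libraries stood at 8.69, 8.78 and 8.61 and the flow libraries at 10.06, 10.90 and 9.42. In skin the static libraries stood at 8.87, 9.19 and 9.08 and the flow libraries at 10.56, 9.86 and 10.77. Static and flow libraries did not overlap in any tissue, and the lowest flow library of the 9, corneal flow 3, lay above the highest static library, skin static 2. The static libraries lay close together in all tissues, whereas the flow libraries of cornea spread from 9.42 to 10.90.

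**Figure D1:**
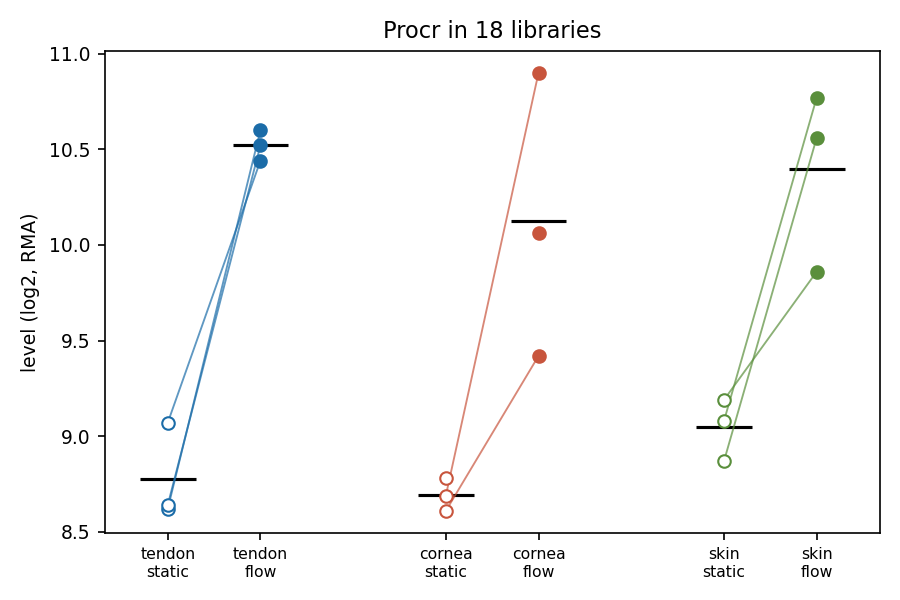
Level of Procr (log2, vertical axis) in the 18 libraries by tissue and state. Open points are static libraries, filled points flow libraries, black bars group means of 3 libraries, and lines join the static and flow library of a pair; all 9 flow libraries lie at 9.42 or above and all 9 static libraries at 9.19 or below.

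The mean of Procr under flow was 10.52 ± 0.08 in tendon, 10.39 ± 0.48 in skin and 10.12 ± 0.74 in cornea. The static means were 9.05 ± 0.16 in skin, 8.78 ± 0.25 in tendon and 8.69 ± 0.08 in cornea. Neighbours in this order differed by 0.09 to 0.27, except for the step of 1.07 between flow cornea and static skin. The differences between flow and static amounted to 1.74 ± 0.28 in tendon (3.35-fold), 1.43 ± 0.28 in cornea (2.70-fold) and 1.35 ± 0.28 in skin (2.54-fold). Averaged over the tissues the difference was 1.51 ± 0.16, or 2.84-fold, and without any tendon library it was 1.39.

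Static and flow libraries can be set in 8 pairs. In 6 of them both libraries carry the same sample date in the scan records, and in the other 2, tendon 1 and skin 1, both belong to the earlier scan batch and carry no date. Procr was higher under flow in 8 of 8 pairs, by 0.66 to 2.20. The smallest gaps were those of skin 2 (0.66) and cornea static 3 with flow 3 (0.81), and the largest that of cornea static 1 with flow 2 (2.20). Within the earlier scan batch the difference was 1.98 in tendon and 1.69 in skin, from 1 pair each. Within the later batch it was 1.62 in tendon, 1.46 in cornea and 1.17 in skin, and the earlier batch holds no static corneal library.

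A measure of RNA quality had higher means under flow, with overlapping ranges. The difference between the 3' and 5' beta-actin probe sets, which grows as RNA degrades, had a mean of 1.10 in static and 1.42 in flow tendon, 0.86 and 0.97 in cornea, and 0.81 and 1.12 in skin. In tendon it ranged from 0.78 to 1.44 in static and from 1.13 to 1.75 in flow libraries. The same measure from Gapdh on chip A had means of 1.98 and 2.15 in tendon and 1.93 and 2.13 in skin. In cornea, at 1.87 and 1.80, it ran the other way on that chip. On chip B the means of the Gapdh measure were higher under flow in each of the 3 tissues. The corneal values on chip B lay between 1.72 and 1.84 in static and between 1.81 and 2.22 in flow libraries. With the beta-actin measure as a covariate the Procr difference was 1.81 in tendon, 1.45 in cornea and 1.41 in skin. The mean level of the 12 endothelial markers ranged from 6.44 to 6.61 in static and 6.38 to 6.57 in flow tendon, from 6.44 to 6.78 and 6.47 to 6.54 in cornea, and from 6.36 to 6.69 and 6.37 to 6.65 in skin, so that the ranges overlapped in each of the 3 tissues. None of the 12 was called for flow in any tissue, beside 0.022% to 0.0605% of all genes. More cells with the transcript and more transcript per cell cannot be told apart in these bulk samples. The Procr probe set (1420664_s_at) has a suffix that marks probes shared with other transcripts, and it was the only one for the gene.

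**Figure D2:**
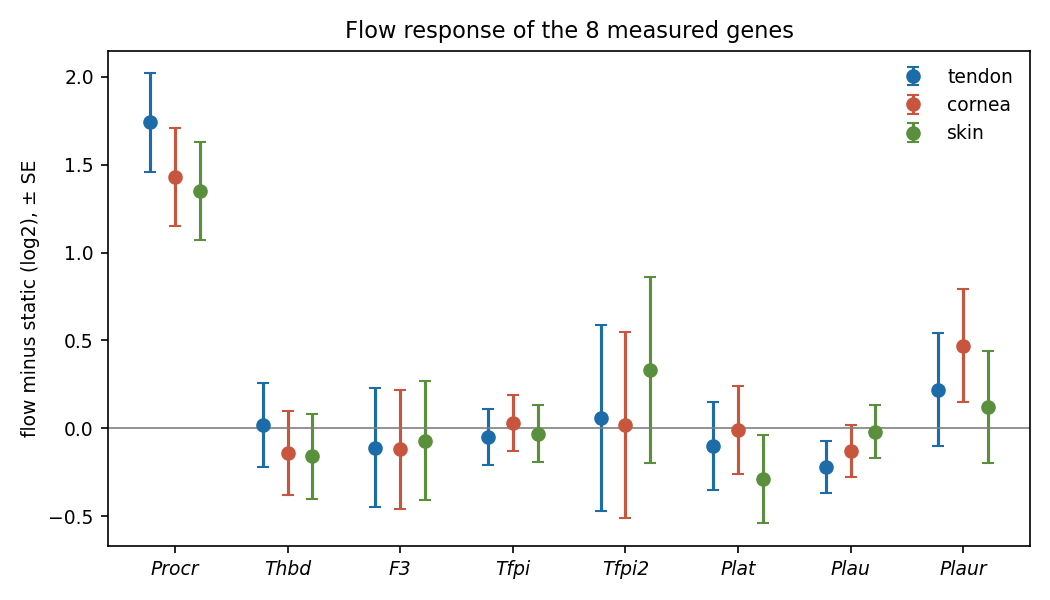
Flow minus static difference (log2, vertical axis) of the 8 measured genes in tendon, cornea and skin; points are fitted differences and bars standard errors, with 3 libraries per group. Procr lies between 1.35 and 1.74, and the other 7 genes lie between -0.29 and 0.47.

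The other 7 genes showed no called change with flow. Of the 8 measured genes 1, Procr, was called in tendon (0.0605% of all genes were called there), 0 in cornea (0.022%), 0 in skin (0.0275%) and 1, Procr again, on average over the tissues (0.896%). Because the flow response of Procr was known when the genes were chosen, nothing is read from that count, and in tendon it was 0 without any 1 of the 6 tendon libraries. With the static and flow pairs as a block (by sample date, or by number where both lie in the earlier scan batch), the counts were 1 in tendon, 0 in cornea, 1 in skin and 1 on average, each of them Procr, while 220, 60, 66 and 1273 of all genes were called. Corneal static 2 and corneal flow 1 have no partner and add nothing to the flow differences of that fit. Deviations from the group means correlated across genes at 0.38 to 0.76 in these 8 pairs. For the difference of the response between tissues 0 of the 8 genes and 0 of all genes (0.0%) were called by limma, with 0 of the 8 and 142 of all genes at an unadjusted p below 0.05. The median difference of the 8 genes on average over the tissues was -0.05, against -0.01 over all genes.

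Thbd encodes thrombomodulin, the cofactor that works beside the protein C receptor. Its static libraries stood at 9.37, 9.20 and 8.89 in tendon, 9.28, 9.79 and 9.09 in cornea, and 9.19, 9.21 and 9.62 in skin. Its flow libraries stood at 9.75, 8.94 and 8.83 in tendon, 9.47, 8.89 and 9.40 in cornea, and 9.39, 8.96 and 9.21 in skin. The groups overlapped in every comparison. The average flow difference was -0.09 ± 0.14 (95% interval -0.39 to 0.21, adjusted p = 0.83). Thbd was higher in 3 of 8 pairs and lower in 5, and no tissue difference exceeded 0.23.

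Protein S, encoded by Pros1 and a cofactor of activated protein C, had an average flow difference of -0.32 ± 0.10 with an adjusted p of 0.17. Its differences were -0.33 in tendon, -0.34 in cornea and -0.28 in skin, each ± 0.17. Of the 11 genes listed for the protein C and TFPI pathways, all measured, 1 was called higher with flow on average and none lower, beside 0.896% of all genes. It was Procr, whose response was known when the genes were chosen, so the count supports nothing. The median of this list was -0.05, against -0.01 over all genes. The thrombin receptor gene F2r, whose probe set stood at the 98.8th percentile of its chip, had an average flow difference of -0.10 ± 0.06 (adjusted p = 0.56), and 0 of the 3 measured protease activated receptor genes were called. Of 17 coagulation factor genes and 11 measured genes of plasminogen activation, 0 were called in any flow comparison. These counts of 0 stand beside 0.0% to 0.896% of all genes called, and so tell little. Among the coagulation factors F3 lay at the 81.3th and F10 at the 41.1th percentile of their chip, and all others between the 4.2th and 35.3th.

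The bases before the start of Procr are shown beside those of Srxn1, the gene whose levels followed Procr most closely, and of F3, a coagulation gene with no called change. They come from RefSeq on the build GRCm38.p6, on the plus strand, and stop before the span of the gene. Capitals mark matches to the antioxidant response element TGACNNNGC or the AP-1 site TGANTCA, searched on both strands.
Procr, chr2:155750967-155751124: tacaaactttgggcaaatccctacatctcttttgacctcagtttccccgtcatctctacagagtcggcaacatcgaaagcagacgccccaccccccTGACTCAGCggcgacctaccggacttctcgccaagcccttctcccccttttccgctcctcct
Srxn1, chr2:152105274-152105523: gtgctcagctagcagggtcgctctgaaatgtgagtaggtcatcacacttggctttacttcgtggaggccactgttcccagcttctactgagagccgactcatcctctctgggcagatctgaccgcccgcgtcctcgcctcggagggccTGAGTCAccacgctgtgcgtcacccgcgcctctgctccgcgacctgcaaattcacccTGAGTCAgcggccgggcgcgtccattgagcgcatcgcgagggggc
F3, chr3:121723287-121723536: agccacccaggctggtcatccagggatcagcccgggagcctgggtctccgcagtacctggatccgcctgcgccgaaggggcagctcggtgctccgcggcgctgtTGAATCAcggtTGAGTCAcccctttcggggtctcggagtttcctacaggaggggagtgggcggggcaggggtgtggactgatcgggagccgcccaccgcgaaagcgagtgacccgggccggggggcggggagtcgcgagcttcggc
In Procr a single stretch matches both motifs and begins 154 bases before the transcript start used in the table. F3 holds AP-1 matches at 146 and 135 bases before the start, and Srxn1 at 102 and 45 bases. Of the 8 genes most like Procr that have a promoter in the table (of 9 named further on), TGANTCA was found in 1, Srxn1, and TGACNNNGC in 2, Gclm and Tfec.

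Promoter stretches of 250 bases were at hand for 6 of the 9 genes. TGACNNNGC was found in 1 of the 6 genes (Procr) and in 10.2% of all 32851 stretches, and TGANTCA in 4 (F3, Plaur, Procr and Tfpi2) and in 6.7% of all. The SP1 motif GGGCGG was in 5 genes and 32.7% of all, and the NF-kB motif in 2 (Procr and Tfpi2) and 15.9%. GAANNTTC, of heat shock elements, was in Tfpi2 and in 6.7% of all, GAGACC, a shear stress response element, in F3 and in 13.7%, and TATAAA in Tfpi and in 12.4%. The TEAD motif GGAATG was in 0 of the 6 genes and in 12.6% of all. Tfpi and Tfpi2 have several starts in the table, and a gene was counted where any of its stretches held the motif.

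The gene most like Procr over the 18 libraries was Srxn1. Among 3653 genes with an SD of at least 0.3, its Pearson r was 0.970, and it encodes sulfiredoxin, which restores oxidised peroxiredoxins. It was followed by Blvrb (0.945), encoding biliverdin reductase B, and Taldo1 (0.941), encoding transaldolase. Next came Cbr3 (0.929), a carbonyl reductase gene, Layn (0.917), Gclm (0.901), which encodes a subunit of the enzyme that makes the glutathione precursor, Serpinb1b (0.891) and Tfec (0.883). With the mean of each tissue subtracted, Srxn1 led again (0.971), with Cbr3 (0.963), Gclm (0.959), Blvrb (0.955), Taldo1 (0.950), the glutathione transferase gene Gsta4 (0.944), Tfec (0.925) and Layn (0.923). All 9 of these genes were called higher with flow on average over the tissues, by 0.62 to 1.92, beside 0.896% of all genes called. They were picked for their likeness to Procr, so nothing is read from that count. The libraries share the contrast of static and flow, which was known for Procr, so these values describe a pattern and carry no test.

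The values behind this likeness, for which Srxn1 was picked, can be read within the flow groups. In tendon, flow 1, 2 and 3 lay 0.95, 0.87 and 0.79 above the tissue mean for Procr, and 1.52, 0.90 and 0.75 above it for Srxn1. Corneal flow 3 lay 0.01 above the tissue mean of Procr, and corneal flow 2 lay 1.49 above it. The corresponding values of Srxn1 were 0.15 and 1.51. In skin, flow 2 lay 0.14 above the tissue mean for Procr and 0.24 for Srxn1, against 1.04 and 1.38 in skin flow 3. The flow libraries in which Procr was lowest within cornea and skin were thus also those in which Srxn1 was lowest.

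**Figure D3:**
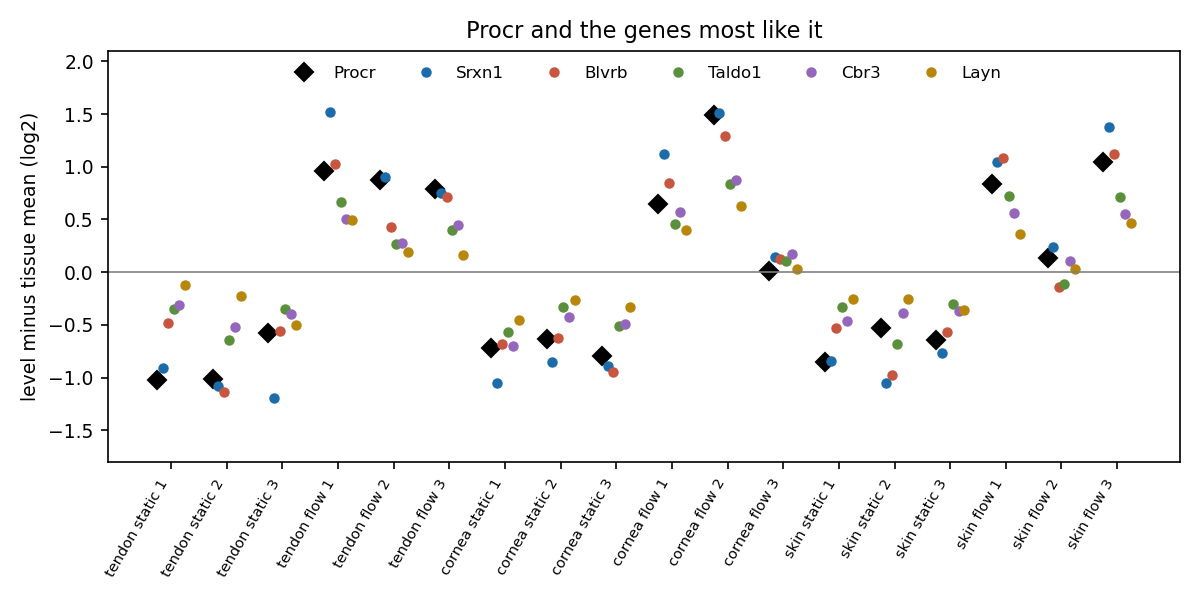
Level minus the mean of its tissue (log2, vertical axis) in the 18 libraries (horizontal axis) for Procr (black diamonds) and the 5 genes with the highest correlation over the libraries. Static libraries lie below 0, and corneal flow 3 and skin flow 2 lie near 0 for all 6 genes.

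Tissue factor, encoded by F3, showed no called difference, and its level in skin spread widely. Its static libraries stood at 8.68, 9.01 and 9.45 in tendon, 9.15, 9.59 and 8.81 in cornea, and 10.03, 9.36 and 10.53 in skin. Under flow they stood at 8.66, 9.12 and 9.04 in tendon, 9.11, 8.82 and 9.26 in cornea, and 9.77, 9.20 and 10.74 in skin. The skin groups had the highest means, 9.98 ± 0.59 and 9.90 ± 0.78, yet skin 2 lay within the range of the corneal libraries in both states and, in static culture, of the tendon libraries. Static skin minus static tendon was 0.93 ± 0.34 (adjusted p = 0.32) and static cornea minus static skin -0.79 ± 0.34 (adjusted p = 0.37). The average flow difference was -0.10 ± 0.20, with a 95% interval of -0.52 to 0.32 and an adjusted p of 0.88.

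Tfpi2, which encodes a matrix-bound inhibitor of plasmin and other serine proteases, differed between corneal and skin fibroblasts. Its static libraries stood at 8.21, 6.87 and 6.57 in cornea, 8.44, 9.02 and 8.71 in tendon, and 10.30, 9.50 and 10.23 in skin. Its flow libraries stood at 6.36, 8.81 and 6.56 in cornea, 8.97, 8.84 and 8.53 in tendon, and 10.68, 9.63 and 10.71 in skin. All 6 skin libraries lay above all 12 others, and 4 of the 6 corneal libraries lay below 7. Corneal static 1 and corneal flow 2, which carry the same sample date, lay apart from the other corneal libraries, near the tendon.

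In static culture Tfpi2 was 6.91-fold lower in cornea than in skin (-2.79 ± 0.53, adjusted p = 0.0075), and under flow it was 8.56-fold lower (-3.10 ± 0.53, adjusted p = 0.0036). These were the only calls among the 8 genes between tissues: 1 of 8 for static cornea against skin (2.47% of all genes) and 1 of 8 for cornea against skin under flow (1.91%). Without any tendon library the adjusted p was 0.03 in static culture and 0.02 under flow. The call under flow was lost where only the 2 groups compared were fitted (adjusted p = 0.073). Without corneal static 1 and corneal flow 2 the differences were -3.29 and -3.88. Within the later scan batch they were -2.65 and -2.49, and within the earlier batch, from 1 library each under flow, -4.32.

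The tendon lay between the other tissues in Tfpi2. Static cornea minus static tendon was -1.50 ± 0.53 (adjusted p = 0.19) and static skin minus static tendon 1.29 ± 0.53 (adjusted p = 0.42). Under flow the differences were -1.54 ± 0.53 (adjusted p = 0.26) and 1.56 ± 0.53 (adjusted p = 0.34). Without corneal static 1 and corneal flow 2, which was chosen after their values were seen, all 4 were called, with adjusted p from 0.00047 to 0.029. The spread of that pair enters the error of every comparison, since all groups share 1 estimate of variance. Flow left the means close together, at 7.22 ± 0.88 and 7.24 ± 1.36 in cornea, 8.72 ± 0.29 and 8.78 ± 0.22 in tendon, and 10.01 ± 0.44 and 10.34 ± 0.62 in skin. The average flow difference of Tfpi2 was 0.14 ± 0.31 (95% interval -0.51 to 0.79, adjusted p = 0.89).

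Other genes that differ between corneal and skin fibroblasts were called beside Tfpi2. In static culture 3 of 10 fibroblast markers, Thy1 (-1.60 ± 0.23), Fap (-1.52 ± 0.25) and Dcn (-1.07 ± 0.22), were called lower in cornea than in skin. So was 1 of 6 skeletal muscle markers, Acta1 (-1.08 ± 0.26), beside 2.47% of all genes called. The median difference of the fibroblast markers was 0.0 in static culture and -0.09 under flow. Their mean level, however, was lower in cornea, at 11.55 to 11.73 in static cornea and 11.88 to 12.14 in static skin. In flow libraries this mean was 11.52 to 11.66 in cornea and 11.84 to 12.04 in skin. Under flow, where 1.91% of all genes were called, the same marker genes were lower in cornea again. Thy1 stood at -1.27 ± 0.23, Fap at -1.58 ± 0.25, Dcn at -0.96 ± 0.22 and Acta1 at -1.13 ± 0.26. The macrophage marker Cd68, at the 23.6th percentile of its chip, was also lower under flow (-0.58 ± 0.13, adjusted p = 0.031). The mean of the 10 macrophage and leukocyte markers was 6.29 to 6.49 in flow cornea and 6.42 to 6.62 in flow skin. The platelet marker Ppbp, a chemokine gene, was higher in cornea (1.79 ± 0.36 in static culture and 1.87 ± 0.36 under flow). The mean of the 6 measured platelet markers was 7.02 to 7.23 in static cornea and 6.71 to 6.94 in static skin. Only Ppbp of the 6 was called, and the median difference of the list was -0.01 in static culture and 0.0 under flow. Of these platelet markers, Pf4 stood at the 20.9th percentile of its chip and Gp6 at the 45.1th. Treml1 stood at the 49.8th, Gp9 at the 53.6th, Itga2b at the 56.9th and Ppbp at the 75.2th. The part of other cell types in the difference of Tfpi2 was not tested.

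Tfpi encodes tissue factor pathway inhibitor and was the gene with the most probe sets, 4. Its representative (1451791_at) stood at 9.79, 10.12 and 10.57 in static tendon, 9.52, 9.81 and 9.54 in static cornea, and 9.75, 9.93 and 9.74 in static skin. Under flow it stood at 9.91, 10.12 and 10.28 in tendon, 9.59, 9.70 and 9.65 in cornea, and 9.66, 9.85 and 9.83 in skin. Tendon had the highest means in both states, and under flow its libraries did not overlap those of cornea or skin, which is a description only. Static cornea minus static tendon was -0.53 ± 0.16, short of a call (adjusted p = 0.11), and 0 of the 8 genes were called there (2.44% of all genes). The same difference under flow was -0.46 ± 0.16 (adjusted p = 0.27), where again 0 of 8 were called (1.69%).

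The probe sets of Tfpi did not all give the same answer. Probe set 1451790_a_at gave -0.67 ± 0.16 for static cornea minus static tendon and was called when all probe sets were adjusted together (adjusted p = 0.033). Probe sets 1452432_at and 1438530_at gave -0.24 ± 0.15 and -0.38 ± 0.24 and were not called. The mean of the chip A probe sets, which leaves out 1438530_at on chip B, was called at -0.48 (adjusted p = 0.031). The representative was called with scan batch as a block (-0.61, adjusted p = 0.024) and without tendon static 1 (-0.72, adjusted p = 0.02). All 4 probe sets gave negative values in static culture and under flow. Flow differences of the representative lay between -0.05 and 0.03 in the 3 tissues, each ± 0.16, with a 95% interval of -0.21 to 0.18 for the average.

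Plat, which encodes tissue plasminogen activator, was highest in skin and lowest in cornea without a call. Its representative (1415806_at) stood at 10.22, 10.39 and 10.18 in static skin, 10.13, 9.54 and 9.70 in static tendon, and 8.91, 9.52 and 9.65 in static cornea. Under flow it stood at 9.81, 10.33 and 9.78 in skin, 9.98, 9.34 and 9.76 in tendon, and 8.91, 9.32 and 9.80 in cornea. Static skin did not overlap the other static groups, which is a description only, and under flow the 3 groups overlapped. Static cornea minus static skin was -0.90 ± 0.25 (adjusted p = 0.07), and it was called without corneal flow 3 (adjusted p = 0.047). Under flow the difference was -0.63 ± 0.25 (adjusted p = 0.38). The other probe set, 1458553_at, gave -0.21 ± 0.13 in static culture and 0.14 ± 0.13 under flow, where its sign differed from that of the representative, without a call. The average flow difference of the representative was -0.13 ± 0.14.

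Plau encodes urokinase, the other plasminogen activator, and both of its probe sets were dim. Its representative (1422138_at) lay at the 39.6th percentile of chip A, with all 18 libraries between 6.37 and 7.03, and 1422139_at lay at the 6.1th. The average flow difference was -0.12 ± 0.09 (adjusted p = 0.63), and no tissue difference exceeded 0.18 in size. A difference in so dim a probe set may not be detectable on these arrays.

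Plaur, the gene of the urokinase receptor, leaned upward with flow without a call. It stood at 9.51, 9.53 and 9.59 in static and 9.84, 9.68 and 9.79 in flow tendon, 9.73, 9.23 and 9.18 in static and 9.55, 10.68 and 9.34 in flow cornea, and 10.39, 9.48 and 10.19 in static and 10.47, 9.46 and 10.47 in flow skin. In tendon the states did not overlap, which is a description only, and in cornea and skin they did. The differences were 0.22, 0.47 and 0.12 in tendon, cornea and skin, each ± 0.32. In the fit without pairs the average was 0.27 ± 0.19 (95% interval -0.12 to 0.67, adjusted p = 0.62). Over the 30 alternatives in processing given further on, the average lay between 0.13 and 0.46. Its adjusted p in those limma fits ranged from 0.05 (rounded) to 0.83, and 0 of them gave a call. Among them, the fits without 1 library gave 0.37 to 0.81, so the adjusted p depended on the setting. Plaur was higher under flow in 7 of 8 pairs, by up to 0.95 in corneal static 1 with flow 2. The share of all genes with such a count of pairs was not determined. Between tissues the widest gap was static cornea minus static skin, -0.64 ± 0.32 (adjusted p = 0.48).

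In skin, F3, Tfpi2 and Plaur differed more between pairs than within them. The pair means of skin spanned 1.35, 0.93 and 0.96, and the largest difference within a skin pair was 0.26, 0.48 and 0.28. There, pair 2 had the lowest mean of F3 (9.28, against 9.90 and 10.64), of Tfpi2 (9.56, against 10.49 and 10.47) and of Plaur (9.47, against 10.43 and 10.33). For skin static 2 the scanner comment names a possibly higher concentration. The difference between the 3' and 5' beta-actin probe sets was 1.09 in skin static 2 and 1.69 in skin flow 2. It was 0.72 and 0.64 in skin static 1 and 3, and 0.74 and 0.94 in skin flow 1 and 3. The part of concentration or RNA quality in the levels of pair 2 was not tested. In cornea, static 1 with flow 2 had the higher mean of Tfpi2 (8.51, against 6.56) and of Plaur (10.21, against 9.26), but not of F3 (8.98, against 9.03). In cornea the pair means of Tfpi2 spanned 1.95, against a largest difference within a pair of 0.59, whereas for Plaur both were 0.95 and for F3 the span was 0.05 against 0.45. In tendon the span was 0.08 for Plaur and 0.31 for Tfpi2, less than the largest differences within pairs of 0.33 and 0.53. For F3 the tendon span was wider, at 0.57, than its largest difference within a tendon pair (-0.41). The median size of the flow difference within pairs was 0.24 for F3, 0.28 for Tfpi2 and 0.17 for Plaur, against 1.69 for Procr. For Procr the pair means spanned 0.17 in tendon, 0.78 in cornea and 0.40 in skin.

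**Figure D4:**
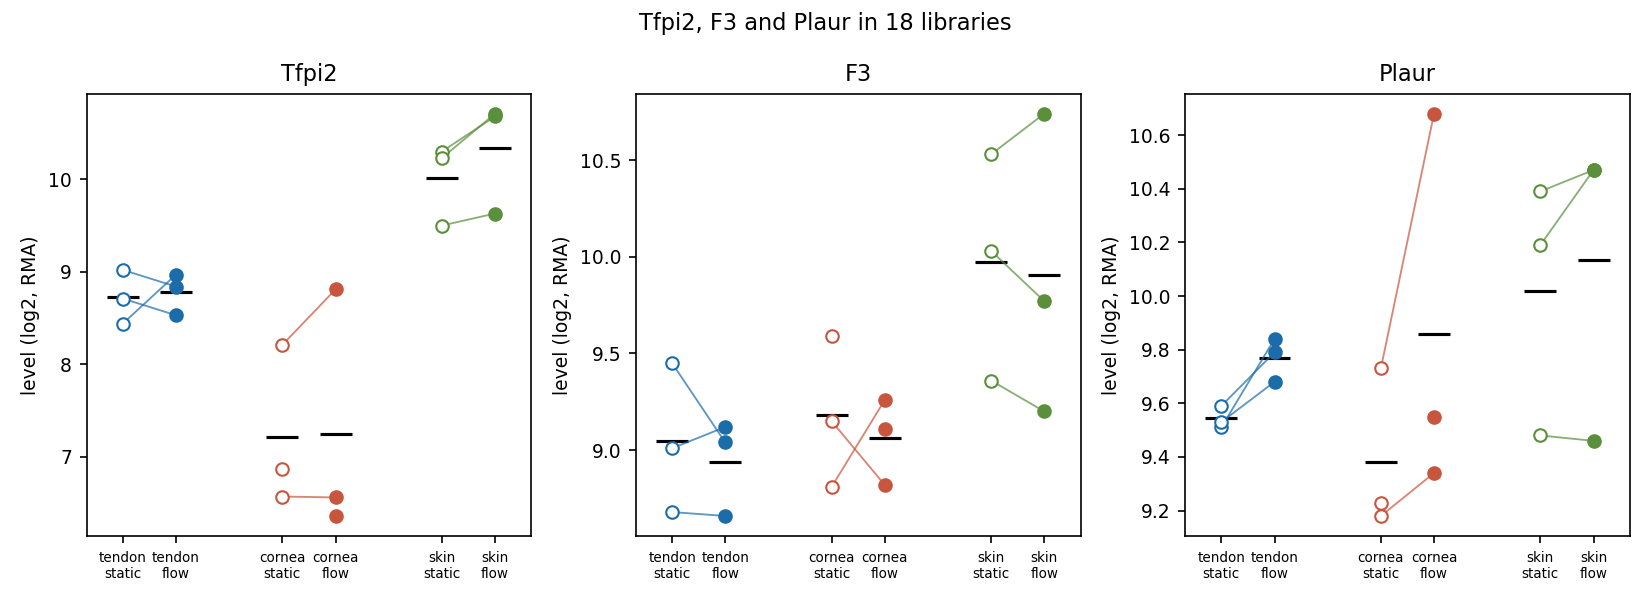
Levels of Tfpi2, F3 and Plaur (log2, vertical axes, which differ between panels) in the 18 libraries; open points are static and filled points flow libraries, bars are group means of 3 libraries and lines join pairs. The corneal pair with Tfpi2 at 8.21 and 8.81 lies above the other corneal libraries, and skin pair 2 lies below the other skin pairs in each panel.

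The patterns most like those of the other genes were found by the same measure. Over the 18 libraries F3 was most like Ppp1r14a (r = 0.892), Tfpi2 most like Rassf8 (0.908), Plat most like Tgfbi (0.856) and Plaur most like Ramp3 (0.868). With tissue means subtracted the closest were Ssb for F3 (0.919), Ramp3 for Tfpi2 (0.863), Twist2 for Plat (0.836) and Tnnt2 for Plaur (0.882). Ramp3, a receptor-modifying membrane protein gene, thus appeared for both Tfpi2 and Plaur. Thbd, Tfpi and Plau varied too little (an SD under 0.3) to be matched.

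Procr itself showed no called difference between tissues in either state. Static cornea minus static tendon was -0.09 (95% interval -0.68 to 0.51, adjusted p = 0.93), static skin minus static tendon 0.27 (-0.32 to 0.86, adjusted p = 0.91) and static cornea minus static skin -0.36 (-0.95 to 0.24, adjusted p = 0.74). Under flow the same differences were -0.40 (-0.99 to 0.20, adjusted p = 0.74), -0.13 (-0.72 to 0.47, adjusted p = 1.0) and -0.27 (-0.86 to 0.32, adjusted p = 0.95). The intervals leave room for differences of up to 0.95 in static culture and 0.99 under flow. For skin against tendon 0 of the 8 genes were called in static culture (1.32% of all genes) and 0 under flow (1.06%).

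**Figure D5:**
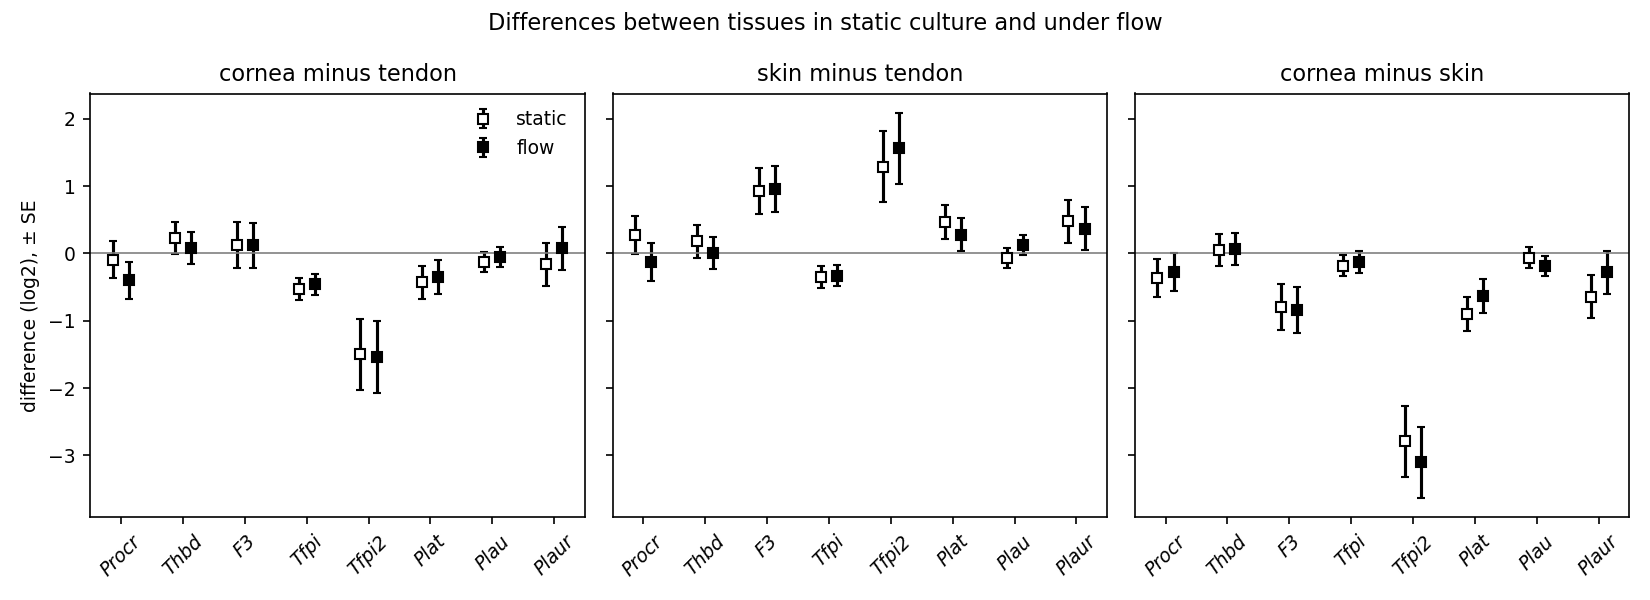
Differences between tissues (log2, vertical axis) of the 8 measured genes in static culture (open squares) and under flow (filled squares); bars are standard errors, with 3 libraries per group. Tfpi2 lies at -2.79 and -3.10 for cornea minus skin, and all other differences lie between -1.54 and 1.56.

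The lists of related genes held no further call between tissues. In the protein C and TFPI list 1 of 11 genes, Tfpi2, was called lower in cornea than in skin, in static culture and under flow. These calls stand beside 2.47% and 1.91% of all genes, and 0 of the list were called in the other 4 tissue comparisons. The list's median for static cornea minus static skin was -0.14, against -0.03 over all genes. In the plasminogen list 0 of 11 and among the coagulation factors 0 of 17 were called in any of the 6 tissue comparisons. Among the protease activated receptors 0 of 3 were called. In these comparisons 1.06% to 2.47% of all genes were called, so counts of 0 in short lists tell little. The median of the plasminogen list was -0.07 and that of the coagulation factors -0.05 for static cornea minus static skin. F2r differed by -0.25 ± 0.10 between static cornea and static skin (adjusted p = 0.29), and Pros1 by -0.24 ± 0.17 (adjusted p = 0.68).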

How the data were processed

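Transcripts of 18 libraries were measured on the Affymetrix MOE430 set, chips A and B. The deposited values are on a log2 scale and were made by the authors with RMA (background correction, quantile normalisation and probe summary), per the submitters' processing notes; its version is not given in the sources used here. Scan records of the arrays gave batch, sample date and comments. Chip A holds 12388 and chip B 5805 of the 18193 genes, each represented by 1 probe set (chip A before B, then the highest mean). limma 3.58.1 in R 4.3.3 was fitted per chip to all probe sets other than controls (22626 and 22511), with 6 group means and 12 residual degrees of freedom, and tested on simulated data. The number of arrays limits the precision.

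The members and lists were chosen with earlier results of these data known. Named genes were the 9 members, called genes of the 4 pathway lists, Pros1, F2r and the genes most like each member. Alternatives changed the probe set, filter, scaling, variance model, blocks, covariate or libraries.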

Additional observations from a re-analysis of the deposited data

How the results depend on the processing

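Over 30 alternatives, 2457 of 2477 refitted values of the 8 genes kept their side of the threshold, 13 gained a call, 7 lost one, 0 called values changed sign, and 89 uncalled values did. The average flow difference of Procr, a value known when the genes were chosen, lay between 1.38 and 1.62 and was called in all 30, which is no independent support. Tfpi2 in static cornea against static skin was called in all 28 that could be fitted. With a replicate block the count of called genes stayed at 1 in tendon and on average (Procr 1.74 and 1.51) and at 0 in cornea and skin; over all genes it called 40, 23, 19 and 580 for flow in tendon, cornea, skin and on average, against 11, 4, 5 and 163 without it. Deviations of same-numbered static and flow libraries correlated at 0.38 to 0.62 in tendon, 0.49 to 0.76 in skin and -0.43 to 0.41 in cornea, so the numbers are not taken as pairs, and tissue differences cannot be fitted with such a block. With a block for the sample date the count for flow in skin was 1 (Procr), with 220, 60, 66 and 1273 of all genes called. For static cornea against static tendon the count was 1 (Tfpi) with the mean of a gene's probe sets on the chip of its representative. It was also 1 with a scan batch block (Tfpi) and without the corneal pair static 1 and flow 2 (Tfpi2). Without that pair, chosen after seeing the data, it was also 1 (Tfpi2) for static skin against tendon and, under flow, for cornea against tendon and skin against tendon. With only the compared groups fitted it was 0 for cornea against skin under flow. Leaving out 1 library at a time gave 0 to 1 called genes for flow in tendon (0 without any 1 of the 6 tendon libraries, with Procr at 1.67 to 1.89), 0 to 1 for flow in cornea (1 without corneal flow 3), 0 to 1 for flow in skin (1 without corneal flow 2), 0 to 1 for static cornea against tendon (1 without corneal flow 2, Tfpi2, or tendon static 1, Tfpi), 1 to 2 for static cornea against skin (Plat added without corneal flow 3) and 0 to 1 for cornea against tendon under flow (1 without corneal flow 2, Tfpi2). Signal near background limits Plau. Where a call was lost or gained the cause was not tested.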
